A study of Mus musculus with 32 samples.

Results

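The mammalian circadian clock is a loop of transcription that turns once a day in nearly every cell. CLOCK and its partner BMAL1, the product of Arntl, bind DNA motifs called E-boxes and switch on the Per and Cry genes, whose proteins enter the nucleus and hold CLOCK and BMAL1 back. The same pair drives Nr1d1 and Nr1d2, which encode the repressors REV-ERB alpha and REV-ERB beta of Arntl, and Dbp, which encodes an activator of clock output genes. Per1 is also an early response gene that glucocorticoid hormone and the kinases acting on the factor CREB switch on without the rest of the loop.

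The core clock genes were taken as a list of 10 symbols (Per1, Per2, Per3, Cry1, Cry2, Arntl, Clock, Nr1d1, Nr1d2 and Dbp), matched to gene identifiers by name and not by any measured value. Of these, 9 were measured among 25058 genes with counts in all 3 assays, and Per3 was not analysed here. The series held 32 libraries from kidney, liver, lung and spleen of wild-type female C57BL/6J mice, 6 or 7 months old and kept in 12 h of light and 12 h of dark. Mice got 1 intraperitoneal dose of cisplatin, 10 mg per kg, at ZT1 (ZT is time since lights on), and organs were taken at ZT5; controls got the same volume of 154 mM saline. This gives 4 h between dose and sampling, while a separate field of the sample labels gives 2 h. There were 2 libraries per organ of Damage-seq, which reads cisplatin adducts at GG dinucleotides still in the DNA, and of XR-seq, which reads the short fragments cut out with an adduct by excision repair, all from cisplatin-treated mice. RNA-seq had 2 control and 2 cisplatin libraries per organ. All RNA was taken at 1 time of day, so the level of a clock gene here is its level at that phase and not its rhythm.

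Reads on genes per library ranged from 15612743 to 162268216 in RNA-seq, from 10658675 to 59779770 in XR-seq and from 1571167 to 6441367 in Damage-seq. The lung and spleen controls were each counted as 1 sample, since their pairs of libraries differed little beyond sampling noise (a ratio of variance to sampling variance of 2.75 and 2.98, against 39.3 to 349 in the other RNA-seq pairs), which left 14 RNA-seq samples. The Damage-seq pairs, at 1.43 to 3.11 on a strand, were kept as separate libraries. Damage-seq p-values thus rest on pairs that also differed little beyond sampling noise. The submitters state that control and cisplatin had once been exchanged in their labels within lung and within spleen RNA-seq, and that this was corrected. With the present labels the p53 target Cdkn1a read 143 and 150 CPM (counts of a gene scaled to the reads on genes in its library) in lung controls against 503 and 587 CPM after cisplatin, and 13.2 and 13.3 CPM in spleen controls against 34.1 and 39.5 CPM. Markers of the labelled organ were present in every library of that organ. Summed markers of pancreas acini read 14.8 and 16.1 CPM in the spleen controls and 1040 and 1430 CPM in the spleen cisplatin libraries, and all 5 of these markers passed the test there. Summed markers of T cells read 116 and 118 CPM in the lung controls and 33.0 and 38.5 CPM in the lung cisplatin libraries, those of spleen and B cells 278 and 287 CPM against 60.1 and 82.2 CPM, and erythroid markers 7340 and 7710 CPM against 3090 and 4060 CPM. The part of these cell types in the lung and spleen values below was not tested. In whole organs, fewer cells of a type and less RNA per cell cannot be told apart.

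On the GRCm38 mouse genome (mm10, GENCODE M21) the members differ widely in length. Dbp, at chr7:45705088-45710203 on the plus strand, spans 5.1 kb, and Nr1d1, at chr11:98767932-98775333 on the minus strand, spans 7.4 kb. Per1 (chr11:69095217-69109960, plus strand) spans 14.7 kb, Cry2 (chr2:92403646-92434043, minus) 30.4 kb, Nr1d2 (chr14:18204054-18239127, minus) 35.1 kb, Per2 (chr1:91415982-91459324, minus) 43.3 kb and Cry1 (chr10:85131700-85185064, minus) 53.4 kb. Clock (chr5:76209868-76304792, minus) spans 94.9 kb and Arntl (chr7:113207465-113314126, plus) 106.7 kb. In 3 of the 9 a gene with counts lies on the opposite strand: Thra covers 14.5% of Nr1d1, Sphk2 covers 14.4% of Dbp, and the non-coding D930015M05Rik covers 77.0% of Cry2. Reads in such a stretch are transcribed-strand reads of one gene and non-transcribed-strand reads of the other. The RNA-seq kit does not mark strand, so RNA reads of overlapping exons cannot be assigned to one gene: 539 bases of exon are shared by Dbp and Sphk2, 18% of the exon length of Dbp, and 263 bases by Nr1d1 and Thra, 8.5% of that of Nr1d1.

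Promoter windows from 250 bases before to 50 bases after an annotated start (RefSeq, GRCm38.p6) were at hand for 9 of the 10 listed genes, 13 windows in all, with none for Per2. Both strands were searched for letters tied to the clock loop: the E-box CACGTG and its variant CACGTT, the D-boxes TTATGTAA and TTACGTAA bound by DBP, the AGGTCA core bound by REV-ERB proteins, and the CREB element TGACGTCA. The window of Per1 that holds matches is printed whole because Per1 is the member whose RNA rose. A further window of Per1, chr11:69099902-69100201 on the plus strand, held no match and is not printed. The printed window is chr11:69098699-69098998 on the plus strand. Both Per1 windows lie inside the GENCODE span of Per1 given above, and no window at hand covered the start of that span. The Clock window with a match, used below, also lies inside the span of its gene. Capitals mark an E-box and, after it, an AGGTCA core read on the opposite strand.
Per1: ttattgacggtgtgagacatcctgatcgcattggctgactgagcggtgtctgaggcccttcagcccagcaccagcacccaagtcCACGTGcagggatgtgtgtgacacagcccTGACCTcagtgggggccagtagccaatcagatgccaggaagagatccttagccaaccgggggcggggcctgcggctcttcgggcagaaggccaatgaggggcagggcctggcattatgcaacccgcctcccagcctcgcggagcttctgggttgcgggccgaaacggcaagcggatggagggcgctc

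Short windows from the other measured members with a match are set out below, with the matched letters in capitals and 9 bases on each side, each read 5′ to 3′ along its gene, so that the differing contexts of the same motif can be seen. AACGTG and TGACCT are CACGTT and AGGTCA read on the opposite strand. The first is the Cry1 E-box (chr10:85185100-85185123), followed by the variant E-boxes of Cry1 (chr10:85185119-85185142), Cry2 (chr2:92434221-92434244) and Nr1d1 (chr11:98775391-98775414), and then the AGGTCA cores of Arntl (chr7:113207533-113207556), Clock (chr5:76303607-76303630) and Nr1d2 (chr14:18239169-18239192).
Cry1 E-box: gccggtggtCACGTGgggtgcatg
Cry1 variant E-box: cacttcagaAACGTGaggtgccgg
Cry2 variant E-box: catggtgggAACGTGagggggcgg
Nr1d1 variant E-box: acagatctcAACGTGccggctgct
Arntl core: gcagaaagtAGGTCAgggacggag
Clock core: tttggcctcTGACCTgacagatga
Nr1d2 core: tggaagaagAGGTCAggaccgctc

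The E-box was found in 2 of the 13 member windows and in 7.15% of all 32851 windows, the variant CACGTT in 3 and in 4.68%, and the AGGTCA core in 4 and in 16.3%. TTATGTAA was found in 1 of the 13, that of Per3, and in 0.938% of all windows, while TTACGTAA (0.119% of all windows) and the CREB element (1.79%) were in 0 of the 13. A match is a description of these letters only, and none of the assays here measured binding.

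The first question was whether a dose of cisplatin altered the RNA of clock genes in each organ. Per1, which encodes a repressor of CLOCK and BMAL1, rose 5.08-fold in kidney and 5.55-fold in liver, and no other member passed the test in any organ. In kidney its level was 1.91 and 5.29 RPKM (reads per kilobase of exon, scaled to library sizes adjusted by TMM, the trimmed mean of M-values) in the 2 controls and 18.2 and 18.6 RPKM after cisplatin. In liver it was 1.54 and 2.55 RPKM in controls and 13.6 and 9.15 RPKM after cisplatin. The cisplatin libraries of both organs lay above both controls. The log2 fold change was 2.34 ± 0.43 (SE) in kidney (adjusted p = 0.0195) and 2.47 ± 0.43 in liver (adjusted p = 0.0164), from edgeR's quasi-likelihood test of changes beyond 0.4 on the log2 scale, with Benjamini-Hochberg adjustment over 19099 genes. Replicates are called biological by the study, but the labels name no animals, so p-values measure the spread between these samples.

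Lung Per1 read 6.47 and 5.96 RPKM in the control libraries and 18.8 and 16.6 RPKM after cisplatin, and spleen Per1 read 4.11 and 4.16 RPKM against 7.41 and 9.40 RPKM. In both organs the cisplatin libraries were again the higher ones, yet neither difference passed in this fit, where each of these control pairs was 1 summed sample. The paper, using DESeq2, reports Per1 as significantly upregulated in all 4 organs. The log2 fold change was 1.51 ± 0.54 in lung (edgeR adjusted p = 0.48) and 0.97 ± 0.52 in spleen (edgeR adjusted p = 1). The 4 responses of Per1 were not shown to differ between organs (interaction F = 2.47, edgeR adjusted p = 0.746). The kidney call rested on few libraries: its adjusted p in edgeR was 0.115 without cisplatin library 1, 0.0926 without cisplatin library 2 and 0.068 without control library 1, with a log2 fold change between 1.80 and 3.27 over all libraries left out in turn. In liver it was 0.161 without control library 1 and 0.0514 without control library 2, and with liver fitted on its own it was 0.109. Lung fitted on its own gave 0.0256.

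**Figure D1:**
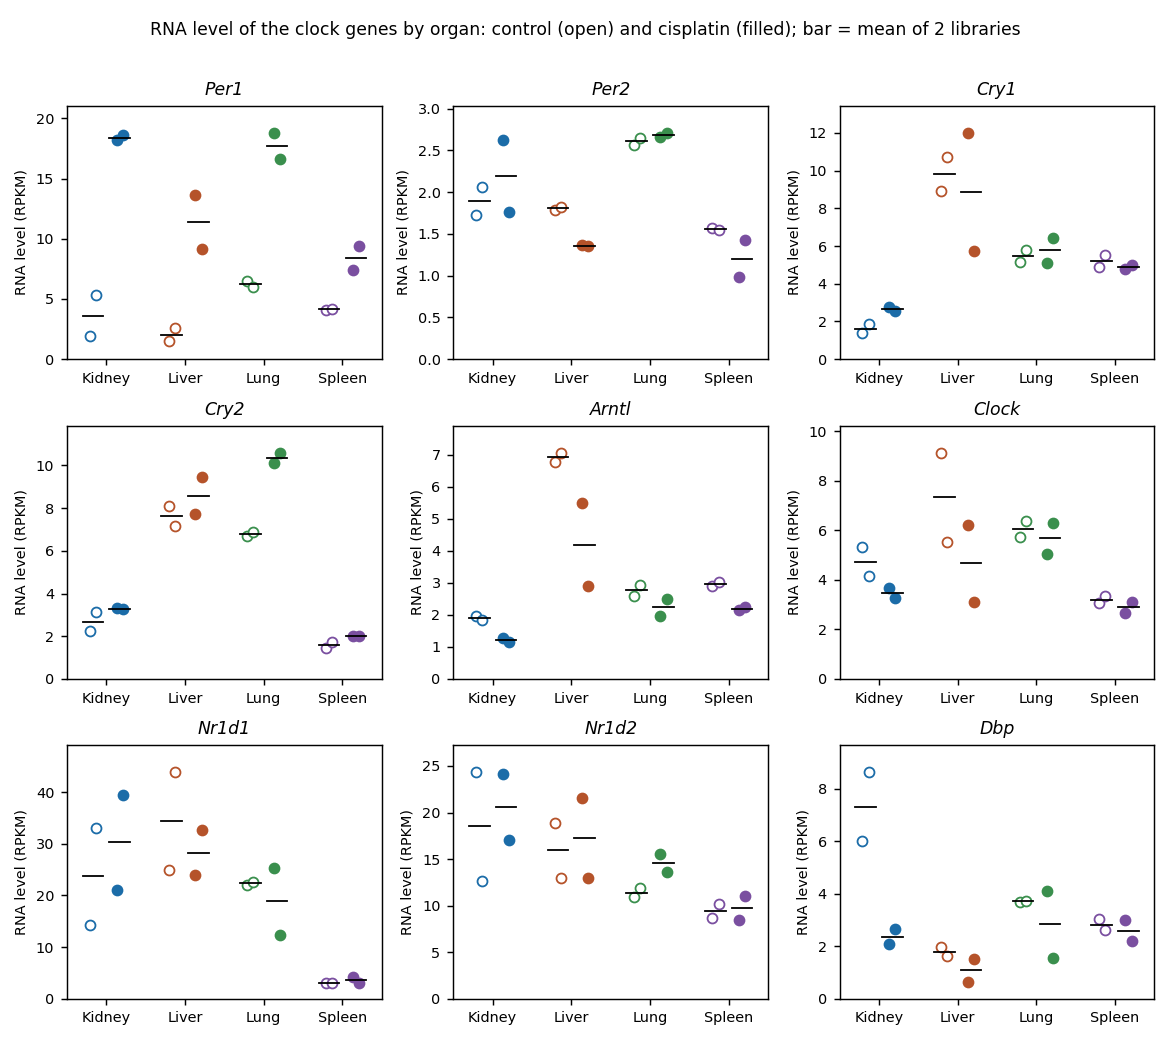
RNA level (RPKM, each panel from 0 on its own axis) of the 9 clock genes in each organ; open points are control libraries, filled points cisplatin libraries and bars the mean of 2 libraries. The filled points of Per1 lie above the open ones in all 4 organs, and those of Dbp in kidney lie below (2.07 and 2.64 against 5.99 and 8.61 RPKM).

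The member counts stand against these shares of all genes tested. Cisplatin raised 1 of 9 members in kidney, where 1.71% of genes rose, and 0 of 9 fell, where 1.41% of genes fell. In liver 1 of 9 rose (0.403% of all genes) and 0 fell (2.30%). In lung 0 rose (0.00%) and 0 fell (0.367%), and in spleen 0 rose (0.120%) and 0 fell (0.0157%). The median log2 fold change of the 9 genes was 0.20 (kidney), -0.29 (liver), 0.00 (lung) and -0.14 (spleen), beside medians over all genes tested of 0.00, 0.00, 0.01 and -0.03.

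Per2, the other period gene measured, had log2 fold changes between -0.42 and 0.20. It read 1.73 and 2.06 RPKM in kidney controls and 2.62 and 1.76 RPKM after cisplatin, groups that overlapped. In liver it read 1.79 and 1.82 RPKM against 1.37 and 1.35 RPKM, lower in both cisplatin libraries, with a log2 fold change of -0.41 ± 0.29 (edgeR adjusted p = 0.746). The other log2 fold changes were 0.20 ± 0.28 (kidney), 0.00 ± 0.34 (lung) and -0.42 ± 0.34 (spleen).

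The cryptochrome genes encode the partners of PER proteins in repression. Cry1 read 1.40 and 1.85 RPKM in kidney controls and 2.78 and 2.53 RPKM after cisplatin, a log2 fold change of 0.70 ± 0.33 (edgeR adjusted p = 0.493), without overlap between the groups. Its log2 fold change was -0.14 in liver, 0.01 in lung and -0.17 in spleen. Cry2 had positive log2 fold changes in all 4 organs, none past the test: 0.57 ± 0.27 in lung, 0.30 ± 0.22 in kidney, 0.26 ± 0.26 in spleen and 0.17 ± 0.21 in liver. In lung it read 6.72 and 6.89 RPKM in the control libraries and 10.1 and 10.6 RPKM after cisplatin, and in spleen 1.46 and 1.72 RPKM against 2.03 and 2.02 RPKM.

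Arntl and Clock, the activating pair, had negative log2 fold changes in every organ, and none passed the test. Arntl read 1.97 and 1.85 RPKM in kidney controls and 1.27 and 1.16 RPKM after cisplatin. In liver it read 6.78 and 7.07 RPKM against 5.51 and 2.89 RPKM, in lung 2.59 and 2.95 RPKM against 1.97 and 2.50 RPKM, and in spleen 2.89 and 3.03 RPKM against 2.14 and 2.24 RPKM. Both cisplatin libraries lay below both control libraries in each organ. The log2 fold change of Arntl was -0.72 ± 0.28 in liver (edgeR adjusted p = 0.427), -0.65 ± 0.29 in kidney (0.478), -0.49 ± 0.34 in spleen (1) and -0.38 ± 0.34 in lung (1). Without liver cisplatin library 1, the higher of the pair, the liver value of Arntl was -1.26 (edgeR adjusted p = 0.019).

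Clock read 5.32 and 4.14 RPKM in kidney controls and 3.68 and 3.27 RPKM after cisplatin, and 9.13 and 5.52 RPKM in liver controls against 6.22 and 3.10 RPKM, where the groups overlapped. Its log2 fold change was -0.65 ± 0.34 in liver, -0.44 ± 0.34 in kidney, -0.22 ± 0.41 in spleen and -0.16 ± 0.41 in lung. These 2 genes are the longest members, and RNA of long genes in general was lower after cisplatin. Over 808 genes of 90 to 120 kb the median log2 fold change was -0.53 (liver), -0.51 (kidney), -0.22 (spleen) and -0.28 (lung), while over 6104 genes under 10 kb it was 0.31, 0.20, 0.11 and 0.14. In each organ the values of Arntl and Clock differed from the median of genes of their length by less than 1 SE. The part of gene length in them was not tested.

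Nr1d1 and Nr1d2, the REV-ERB repressors of Arntl, varied more between replicates than between treatments in kidney and liver. Nr1d1 read 14.3 and 33.1 RPKM in the kidney controls and 21.1 and 39.4 RPKM after cisplatin, and 25.0 and 43.8 RPKM in the liver controls against 23.9 and 32.6 RPKM. Its log2 fold change was 0.35 ± 0.48 in kidney, 0.23 ± 0.60 in spleen, -0.28 ± 0.58 in lung and -0.29 ± 0.48 in liver. Nr1d2 read 24.3 and 12.7 RPKM in kidney controls and 24.1 and 17 RPKM after cisplatin, with log2 fold changes between -0.05 in spleen and 0.30 in lung.

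Dbp, an output gene driven directly by CLOCK and BMAL1, had the most negative kidney value. It read 5.99 and 8.61 RPKM in the kidney controls and 2.07 and 2.64 RPKM after cisplatin, without overlap, a log2 fold change of -1.63 ± 0.49 that did not pass (edgeR adjusted p = 0.149). Against no change the unadjusted p was 0.00714 and the adjusted p 0.0818 in edgeR's quasi-likelihood test. Over 7 alternative settings the adjusted p ran from 0.035 to 0.228: it passed with no filter on low counts (0.0445), with kidney fitted on its own (0.035) and with a replicate block (0.0424), and not in the other 4, DESeq2 included (0.228). With each library left out in turn it ran from 0.0789 to 0.587. The log2 fold change was -0.74 ± 0.51 in liver, where Dbp read 1.96 and 1.62 RPKM in controls and 0.643 and 1.51 RPKM after cisplatin, -0.42 ± 0.57 in lung and -0.14 ± 0.58 in spleen. Sphk2, which shares exon sequence with Dbp, read 12.3 and 16 RPKM in kidney controls and 11.3 and 12.6 RPKM after cisplatin. Dbp is the shortest member, and genes under 10 kb had a median log2 fold change of 0.20 in kidney. The part of gene length or of Sphk2 reads in the Dbp values was not tested.

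**Figure D2:**
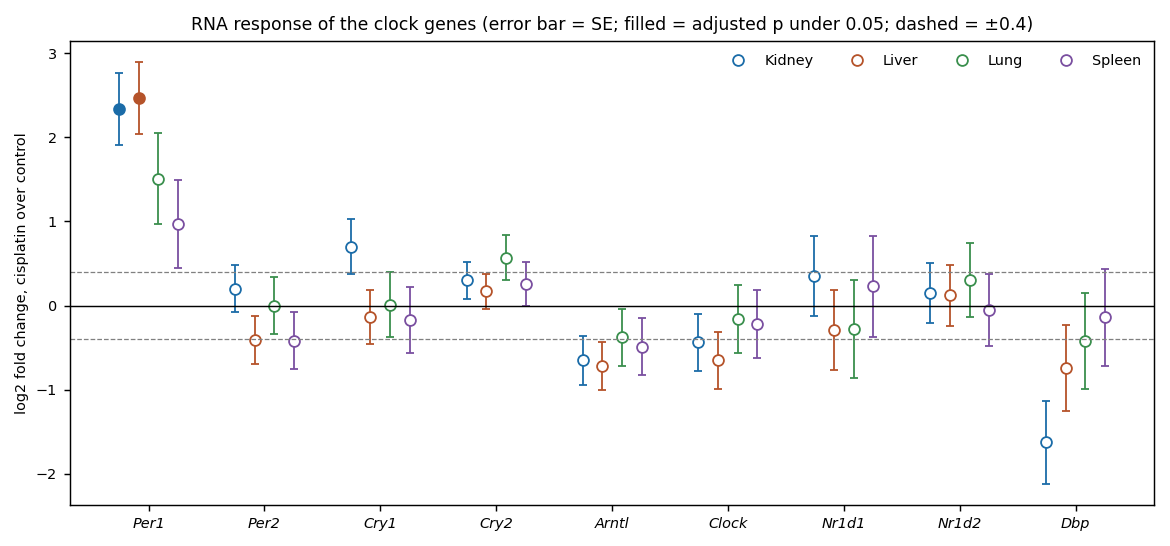
log2 fold change of RNA, cisplatin over control, for each clock gene and organ, with bars of 1 SE; filled points passed the test at an adjusted p under 0.05 and dashed lines mark the tested threshold of 0.4. Only Per1 in kidney (2.34) and liver (2.47) is filled, and Arntl and Clock lie below 0 in all 4 organs.

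No member passed the test of a response that differs between organs (0 of 9, 0.194% of all genes, edgeR), nor at an unadjusted p under 0.05 (0 of 9), and DESeq2 called 0 as well.

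Of 23 further genes of the clock (kinases, ubiquitin ligases, D-box and E-box factors), all measured, 2 rose in kidney (1.71% of all genes tested). In liver 1 rose (0.403%) and 1 fell (2.30%). In lung 0 passed (0.00% of all genes rose and 0.367% fell), as in spleen (0.120% and 0.0157%). Nfil3, a repressor that competes with DBP for D-boxes, rose 4.5-fold in kidney, from 16.6 and 20.1 CPM to 82.8 and 77.5 CPM (edgeR adjusted p = 0.00192). Bhlhe41, a repressor that binds E-boxes, rose 3.56-fold there, from 4.87 and 4.63 CPM to 15.1 and 17.2 CPM (edgeR adjusted p = 0.00318). Ciart, a repressor of CLOCK and BMAL1, rose 5.14-fold in liver, from 0.366 and 0.206 CPM to 1.81 and 1.17 CPM (edgeR adjusted p = 0.0123). Btrc, a subunit of the ligase that marks PER proteins for breakdown, fell 4.85-fold in liver, from 18.4 and 15.4 CPM to 4.06 and 2.99 CPM (edgeR adjusted p = 0.00165). Its log2 fold change was also negative, without passing, in kidney (-0.89 ± 0.22), lung (-1.16 ± 0.26) and spleen (-0.71 ± 0.26). No test of a difference between organs is given here for the genes of this list. With liver fitted on its own the liver calls were lost (edgeR adjusted p = 0.237 for Ciart and 0.0991 for Btrc). The median log2 fold change of the list was 0.51 (kidney), 0.06 (liver), 0.23 (lung) and 0.08 (spleen).

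Genes of other pathways named in the background were counted in the same fit, where 1.71% of all genes tested rose in kidney and 0.403% in liver. Of 12 immediate-early genes and targets of CREB, 9 rose in kidney and 2 in liver, with the greatest values for Atf3 (log2 fold change 6.20 ± 0.51 in kidney, edgeR adjusted p = 0.000345) and Egr1 (4.13 ± 0.52 in kidney, edgeR adjusted p = 0.00286). Of 12 genes induced by glucocorticoid, 3 rose in kidney and 0 in liver, among them Dusp1 (2.30 ± 0.28, edgeR adjusted p = 0.00276) and Pdk4 (1.97 ± 0.30, edgeR adjusted p = 0.0101) in kidney. The largest change of that list was negative and did not pass, Lcn2 in liver (-4.16 ± 1.31, edgeR adjusted p = 0.156). Of 9 p53 targets, 4 rose in kidney and 1 in liver, among them Cdkn1a (4.33 ± 0.75 in kidney, edgeR adjusted p = 0.013) and Btg2 (2.96 ± 0.20 in kidney, edgeR adjusted p = 0.000149). In lung and spleen 0 genes of these 3 lists passed. Of all genes tested, 0.00% rose and 0.367% fell in lung, and 0.120% rose and 0.0157% fell in spleen. With liver fitted on its own in edgeR, 0 of 13867 genes passed (1261 at an unadjusted p under 0.05), so the liver calls of these lists were lost as well, with adjusted p-values of 0.164 for Atf3, 0.288 for Fos and 0.364 for Btg2, while DESeq2 on all samples called 603 genes in liver. The median log2 fold change of the glucocorticoid list was 0.99 (kidney), 0.56 (liver), 1.06 (lung) and 1.18 (spleen), that of the CREB list 2.52, 0.87, 0.34 and 0.30, and that of the p53 list 1.46, 1.04, 0.51 and 0.11.

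Across the 14 RNA-seq samples, after centring each organ on its own mean of log2 CPM, the genes most like Per1 were Map3k6 (Pearson r = 0.981), Rhob (0.969) and Xab2 (0.965). Those most like Arntl were Ppat (0.985), Kat2b (0.979) and Ttc37 (0.974), and those most like Dbp were Narfl (0.917), Igkv4-58 (0.904) and Mmp11 (0.904). Among the members Arntl and Clock varied most alike (r = 0.86), Per1 and Cry2 had r = 0.71, and Per1 was opposed to Arntl (r = -0.76) and Dbp (r = -0.72). These coefficients share their samples and the treatment contrast and are given as descriptions.

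The next question was how clock RNA differed between organs without cisplatin. Control levels differed in 5 of 9 members (69.1% of all genes tested): Cry1, Cry2, Arntl, Nr1d1 and Dbp. Cry1 was highest in liver at 8.93 and 10.7 RPKM, followed by lung (5.16 and 5.80), spleen (4.87 and 5.52) and kidney (1.40 and 1.85). Only kidney stood apart, with a log2 difference of -1.75 ± 0.38 from spleen (edgeR adjusted p = 0.00295), while liver and lung (edgeR adjusted p = 0.14) and lung and spleen (0.945) were not separated.

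Cry2 was high in liver (8.11 and 7.17 RPKM) and lung (6.72 and 6.89), and low in kidney (2.23 and 3.13) and spleen (1.46 and 1.72). Kidney differed from lung by -1.38 ± 0.25 on the log2 scale (edgeR adjusted p = 0.00157), while the neighbours within each pair did not pass. Arntl was highest in liver (6.78 and 7.07 RPKM), above spleen by 1.16 ± 0.36 (edgeR adjusted p = 0.0201), with spleen, lung and kidney not separated from each other. Nr1d1 was lowest in spleen (2.97 and 3.01 RPKM), below lung (22.1 and 22.6 RPKM) by a log2 difference of 2.88 ± 0.73 (edgeR adjusted p = 0.0138), with no separation among liver, kidney and lung. The lung and spleen controls are 1 summed sample each, so a test between them takes its spread from the other groups.

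Dbp had the reverse order of Arntl, highest in kidney (5.99 and 8.61 RPKM) and lowest in liver (1.96 and 1.62 RPKM), a log2 difference of 2.03 ± 0.50 (edgeR adjusted p = 0.00789). No neighbours in the order kidney, lung, spleen, liver differed. The test over the 4 organs lost Dbp without kidney control library 2 (edgeR adjusted p = 0.11), liver control library 1 (0.0562) or liver control library 2 (0.0805). Per1 (lung above spleen, kidney and liver), Per2, Clock and Nr1d2 did not pass it, with adjusted p = 0.0619 for Per1, although single pairs of organs did for Per1 (liver below lung, edgeR adjusted p = 0.0197) and Clock (liver above spleen, 0.0494). Per1 passed it without kidney control library 1 (edgeR adjusted p = 0.0087), without kidney control library 2 (0.00574) and with no filter on low counts (0.00699). Clock passed in DESeq2 (0.0295) and in edgeR without liver cisplatin library 1 (0.0333) or 2 (0.0339). By pair, 4 of 9 members differed between kidney and liver (36.5% of genes), 2 between kidney and lung (36.2%), 2 between kidney and spleen (50.0%), 2 between liver and lung (45.2%), 4 between liver and spleen (50.9%) and 2 between lung and spleen (28.4%).

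XR-seq asked how adducts in these genes were repaired on each strand. Excision repair has a branch coupled to transcription, in which RNA polymerase halted at an adduct on the transcribed strand (TS) calls in the repair proteins, and a global branch that works on both strands. Reads were set against GG dinucleotides on the same strand. Averaged over organs, TS reads exceeded those of the non-transcribed strand (NTS) in 9 of 9 members, as they did in 64.9% of all genes. By organ this held for 8 of 9 members in kidney (55.4% of genes), for 8 in spleen (56.8%), for 7 in lung (58.1%) and for 7 in liver (50.4%). The median ratio of TS to NTS over all genes tested was 5.66.

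The mean ratio over organs ran from 29.5 for Cry1, 26.9 for Nr1d2 and 19.2 for Cry2, through 14 for Per1, 12.1 for Per2, 10.4 for Arntl and 5.74 for Clock, to 1.84 for Dbp and 1.76 for Nr1d1. The adjusted p of this mean ratio in edgeR's quasi-likelihood test ranged from 7.05e-09 for Cry2 to 0.0025 for Dbp. The 2 shortest members, Dbp and Nr1d1, had the lowest ratios. The median ratio was 2.69 over 6433 genes under 10 kb and 6.3 over 6390 genes of 10 to 30 kb. It was 8.75 over 3506 genes of 30 to 60 kb and 10.6 over 881 genes of 90 to 120 kb. Dbp, Nr1d1, Clock and, by little, Arntl lay below the median of their length class. Per1, Per2, Cry1, Cry2 and Nr1d2 lay above it. The part of gene length in these ratios was not tested.

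Dbp and Nr1d1 also share ends with genes on the opposite strand. The TS of Sphk2 read 103 and 70.2 RPM (strand reads scaled in the same way as CPM) per 1000 GG in kidney, 74.6 and 68.8 in lung, 63.0 and 64.4 in spleen and 42.1 and 46.5 in liver. The NTS of Dbp read 31.4 and 50.0 in kidney, 15.9 and 29.2 in lung, 28.0 and 41.2 in spleen and 63.5 and 48.5 in liver, so that liver was lowest for Sphk2 and had the highest mean for Dbp. The TS of Thra read from 42.5 to 75.2 over the 8 libraries, and the NTS of Nr1d1 from 22.0 to 46.4. D930015M05Rik, within Cry2, read 1.63 to 9.24 on its own TS, beside 1.38 to 7.33 on the NTS of Cry2. The part of the overlapping genes in these ratios was not tested.

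**Figure D3:**
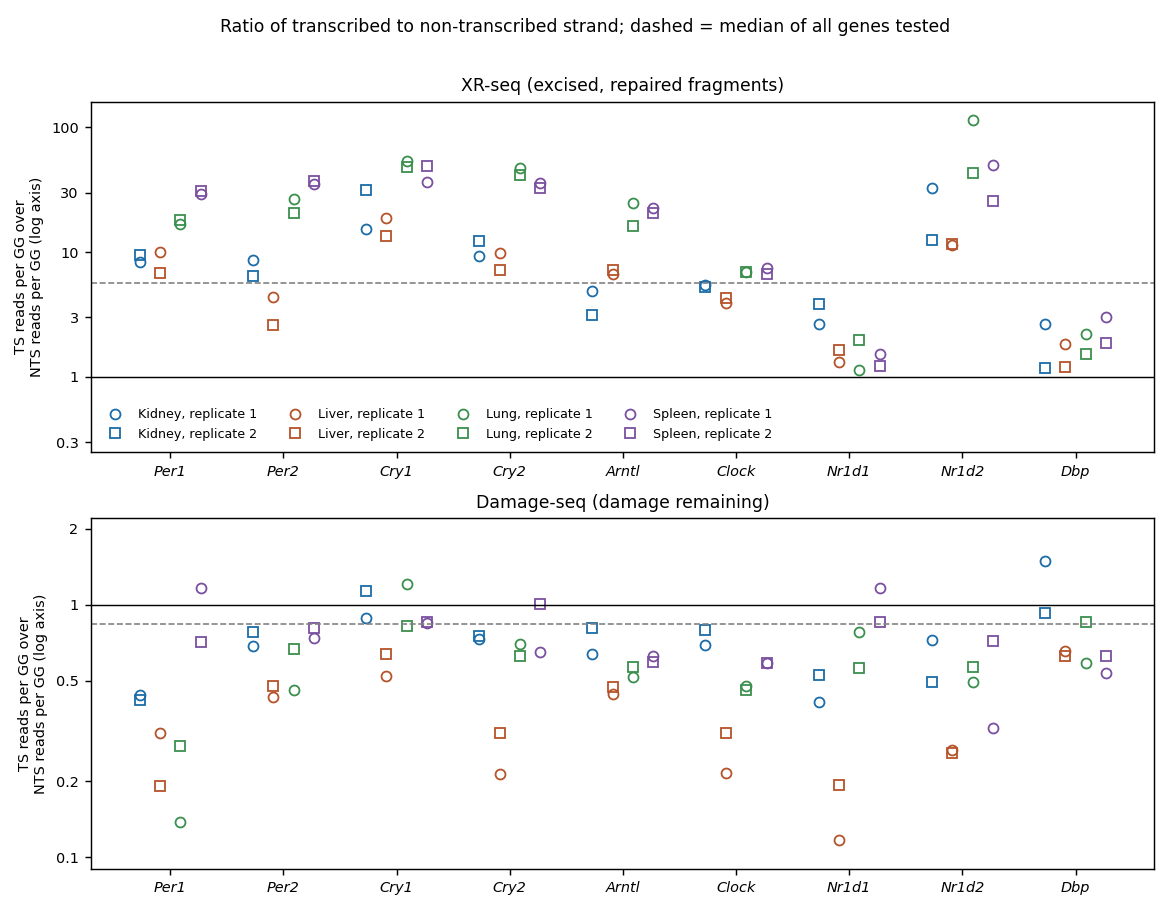
TS reads per GG divided by NTS reads per GG in each library (log axis) for XR-seq (top) and Damage-seq (bottom); colours are organs, circles and squares replicates 1 and 2, the solid line equality and the dashed line the median of all genes tested (5.66 and 0.84). In XR-seq Nr1d1 and Dbp lie below the dashed line in every library, and in Damage-seq most points lie below 1, with the liver points of Nr1d1 at 0.117 and 0.194.

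The ratio differed between organs in 4 of 9 members, Per1, Per2, Cry2 and Arntl (21.1% of all genes tested). For Per1 it was 29.1 and 31.1 in the spleen libraries, 16.8 and 18.2 in lung, 10.1 and 6.75 in liver and 8.30 and 9.53 in kidney, so that spleen lay above lung and lung above the rest (F = 15.7, edgeR adjusted p = 0.0122). The call was lost without liver library 2 (edgeR adjusted p = 0.0551) or lung library 1 (0.0505). The TS share of Per1 reads was 90.3% (95% Wilson interval 88.8 to 91.6) and 91.4% (90.6 to 92.2) in kidney and 97% (96 to 97.8) and 97.2% (96.7 to 97.7) in spleen. These intervals cover counting error only.

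For Per2 the fitted ratio was 3.38 in liver, 7.45 in kidney, 23.4 in lung and 36.2 in spleen (F = 45.8, edgeR adjusted p = 0.00215). Its NTS varied more than its TS among organs and read 19.5 and 19.1 RPM per 1000 GG in liver, 5.42 and 9.09 in kidney, 2.23 and 2.90 in lung and 1.20 and 1.08 in spleen. The TS ranged from 39.7 to 84.9. For Cry2 the ratio was 8.45 in liver and 10.8 in kidney against 44.4 in lung and 34 in spleen (edgeR adjusted p = 0.00337). For Arntl it was 3.88 (kidney), 6.92 (liver), 20 (lung) and 21.5 (spleen) (edgeR adjusted p = 0.00361). The ratio was thus lower in kidney and liver than in lung and spleen for all 4, as was the median over all genes, at 3.78 (liver), 5.81 (kidney), 7.46 (spleen) and 7.66 (lung).

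The level on each strand was compared among organs as well, as a share of reads and not an absolute amount of repair. Printed levels are scaled to all reads on genes, while the level tests, here and in Damage-seq, used TMM within a strand. The TS level differed in 7 of 9 members (58.3% of genes), all but Cry1 and Cry2, and the NTS level in 4 of 9 (26.3%): Per2, Cry2, Arntl and Nr1d1. With total reads on genes in place of TMM the NTS call of Nr1d1 was lost (edgeR adjusted p = 0.11) and that of Per1 gained (0.0203), and Cry2 was gained on the TS (0.0025). Per1 TS was lowest in liver, at 36.2 and 28.3 RPM per 1000 GG, against 54.9 and 97.5 in kidney, 71.9 and 73.7 in lung and 88.4 and 82.2 in spleen (edgeR adjusted p = 0.00301). The order was not that of RNA after cisplatin, where spleen had the lowest mean of Per1. Arntl TS was 23.4 and 26.2 in liver, where its RNA was highest, and 46.0 and 46.1 in spleen, with 31.9 and 24.5 in kidney and 46.2 and 35.2 in lung (edgeR adjusted p = 0.00219). Arntl NTS was highest in kidney, at 6.59 and 7.86, against 1.88 to 2.23 in lung and spleen.

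Clock TS was 19.9 and 18.4 in liver and between 27.8 and 31.3 elsewhere (edgeR adjusted p = 0.0385). Nr1d1 TS was 90.9 and 90 in kidney, against 53 and 84.2 in lung, 53.2 and 39.3 in spleen and 28.8 and 52.0 in liver (edgeR adjusted p = 0.0436). Dbp TS was lowest in lung, at 35.0 and 45.0, against 58.6 to 116 in the other organs (edgeR adjusted p = 0.00743). Nr1d2 TS was highest in lung, at 29.3 and 33.3, against 15 to 27.9 in the other organs (edgeR adjusted p = 0.0486). With the replicate number as a block Nr1d2 was lost (edgeR adjusted p = 0.0584). The calls also changed with single libraries left out for Clock, Nr1d1, Nr1d2 and Dbp: 4 of 9 members passed without lung library 1 and 4 without spleen library 2. Without lung library 1 the edgeR adjusted p was 0.144 for Clock, 0.127 for Nr1d2 and 0.0512 for Dbp, and without spleen library 2 it was 0.148 for Nr1d1.

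**Figure D4:**
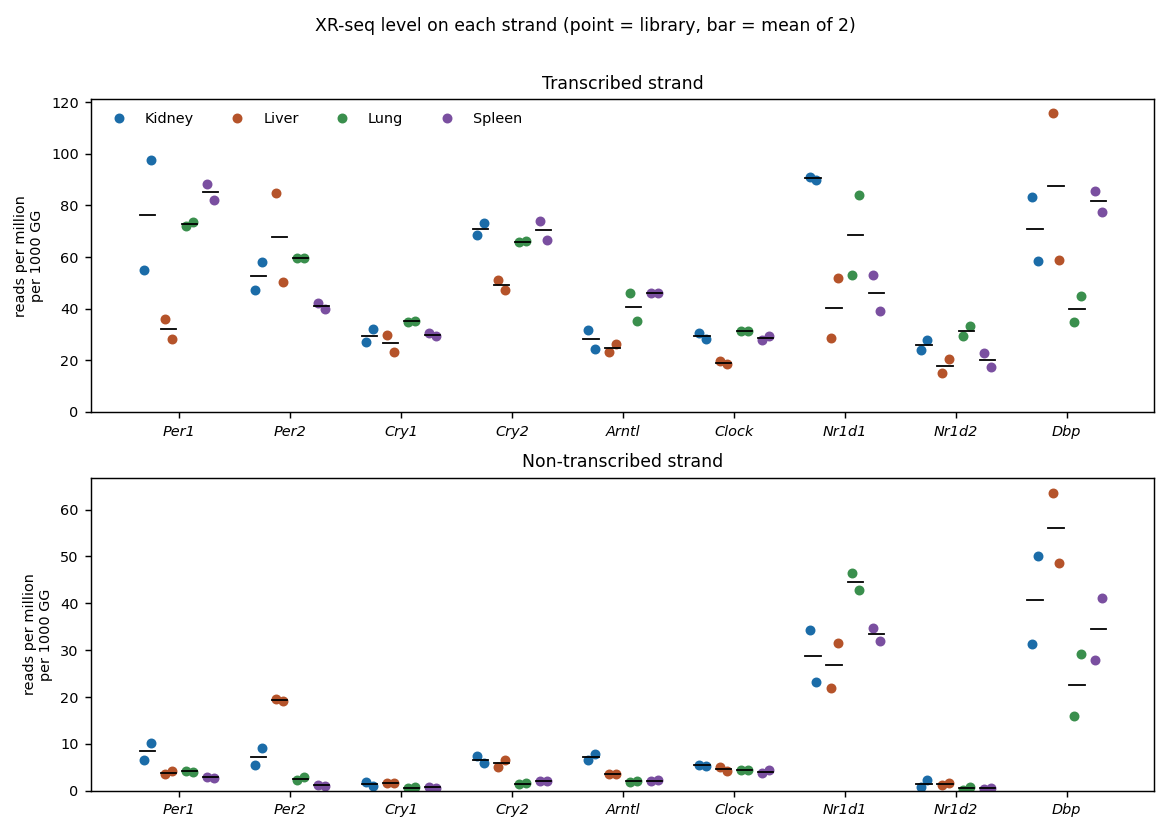
XR-seq RPM per 1000 GG dinucleotides on the TS (top) and NTS (bottom) of each clock gene; points are libraries, coloured by organ, and bars the mean of 2. Dbp and Nr1d1 have the highest mean NTS levels of the 9 genes in each organ, and Per2 follows in liver (19.5 and 19.1).

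Damage-seq asked where adducts remained. On average over organs, TS damage was below NTS damage in 8 of 9 members, against 42.0% of all genes. Per1 had the lowest mean ratio at 0.380, followed by Nr1d1 (0.458), Nr1d2 (0.460), Clock (0.476), Cry2 (0.564), Arntl (0.575), Per2 (0.616) and Cry1 (0.830), with edgeR adjusted p-values from 3.65e-21 for Arntl to 0.039 for Cry1. Dbp, at 0.756, did not pass (edgeR adjusted p = 0.192) and had as few as 4 TS reads in a library. The median over all genes was 0.840. The call of Cry1 was lost without kidney library 1, liver library 1, lung library 2, spleen library 1 or spleen library 2, with edgeR adjusted p-values from 0.0898 to 0.19.

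By organ, TS damage was the lower in 8 of 9 members in liver (32.7% of genes), 6 in lung (27.1%), 5 in kidney (20.9%) and 2 in spleen (13.1%). The kidney count was 3 with gene length in place of GG, 1 without kidney library 1 and 2 without kidney library 2, and the spleen count was 1 without spleen library 1 and 0 without spleen library 2. Counts were small, from 3 TS reads on Nr1d1 in each liver library to 382 on Arntl, so a ratio that missed the test does not show equal strands. Per1 had 108 and 118 TS reads in kidney, 21 and 28 in spleen, 13 and 36 in lung and 22 and 9 in liver. The TS share of its Damage-seq reads was 32.9% (95% Wilson interval 28.1 to 38.2) and 32.1% (27.5 to 37) in kidney. In spleen it was 56.8% (40.9 to 71.3) and 44.4% (32.8 to 56.7). The interval of spleen library 1 lay above both kidney intervals, while that of spleen library 2 overlapped both. These intervals cover counting error only.

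The ratio differed between organs in 4 of 9 members, Per1, Cry2, Arntl and Clock (10.3% of all genes tested). For Per1 it was 0.138 and 0.277 in lung, 0.311 and 0.191 in liver, 0.438 and 0.421 in kidney and 1.17 and 0.713 in spleen (F = 8.5, edgeR adjusted p = 0.00115). Spleen lay above the other organs in both libraries. For Clock it was 0.216 and 0.310 in liver, 0.476 and 0.460 in lung, 0.586 in both spleen libraries and 0.696 and 0.798 in kidney (edgeR adjusted p = 0.000521). For Cry2 it was 0.213 and 0.310 in liver and from 0.630 to 1.01 elsewhere (edgeR adjusted p = 0.00189). Arntl ran from 0.445 and 0.473 in liver to 0.640 and 0.811 in kidney (edgeR adjusted p = 0.0335). Liver was thus the lowest organ for Clock, Cry2 and Arntl, and liver libraries carried these calls: without liver library 1 the edgeR adjusted p was 0.15 for Clock, 0.431 for Cry2 and 0.263 for Arntl, and 1 of 9 members remained past the threshold. Arntl was also lost without liver library 2 (0.124) or kidney library 2 (0.377).

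The level of damage, as a share of each library's reads on genes and not an absolute number of adducts, differed between organs on the TS in 8 of 9 members (31.9% of all genes), all but Cry1, and on the NTS in 5 of 9 (18%): Per1, Per2, Cry2, Nr1d1 and Dbp. Kidney had the highest values for these 5 on both strands, apart from Dbp on the NTS, where a kidney and a lung library overlapped. Per1 NTS was 25.7 and 32.8 RPM per 1000 GG in kidney and between 7.65 and 14.4 elsewhere (edgeR adjusted p = 5.34e-06). Per1 TS was 11.2 and 13.8 in kidney, 8.95 and 8.48 in spleen, 3.65 and 2.47 in liver and 1.63 and 3.98 in lung (edgeR adjusted p = 2.07e-08). Dbp TS was 22.3 and 26.8 in kidney against 3.5 and 3.31 in liver (edgeR adjusted p = 4.81e-07), and Cry2 TS 10.5 and 13.5 against 2.22 and 2.39 (edgeR adjusted p = 2.37e-08). Without kidney library 2 the NTS count was 2 of 9, with Cry2 at an edgeR adjusted p of 0.157, Dbp at 0.13 and Nr1d1 at 0.096. Without liver library 1 the TS count was 5 of 9, with Clock at 0.326, Nr1d2 at 0.214 and Nr1d1 at 0.0528.

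**Figure D5:**
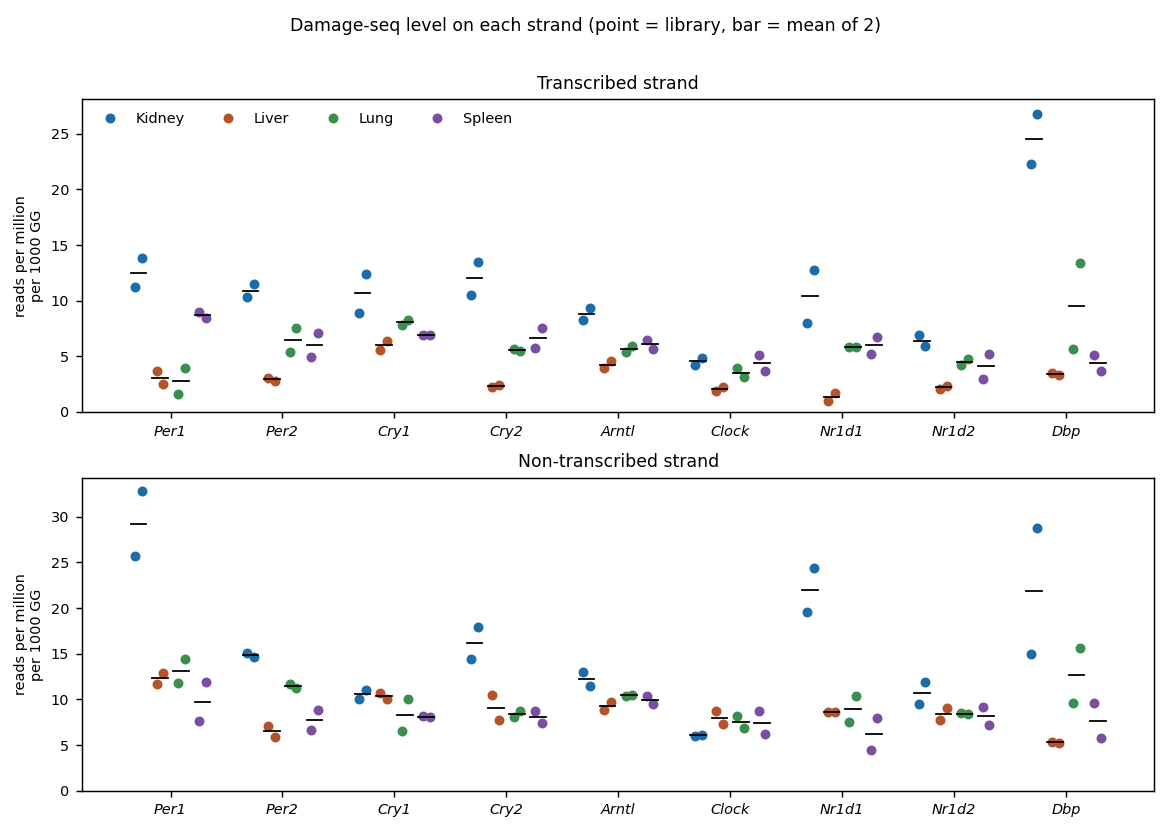
Damage-seq RPM per 1000 GG dinucleotides on the TS (top) and NTS (bottom) of each clock gene; points are libraries, coloured by organ, and bars the mean of 2. Kidney points lie highest on both strands of Per1, Per2, Cry2 and Nr1d1, and Dbp TS in kidney (22.3 and 26.8) is the highest TS level.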

How the data were processed

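Damage-seq, XR-seq and RNA-seq libraries were made from 4 organs. Raw counts per gene, for RNA and for each strand in Damage-seq and XR-seq, were deposited by the authors, who aligned DNA reads with BWA, removed duplicates with Picard and kept reads with GG at the expected position, and aligned RNA reads with STAR and counted them with featureCounts, on mm10. The strand setting of RNA counting is not given in the sources used here. In each DNA file 1 line without a gene identifier was dropped.

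The members and gene lists were chosen with earlier results of these data known. Organs and treatments came from the labels. RNA counts of 14 samples (16 libraries, with the lung and spleen control pairs each summed because their chi-square index was under 3) were fitted together with edgeR 4.0.16 in R 4.3.3, TMM scaling and the quasi-likelihood method, with 6 residual degrees of freedom. Each organ's response was tested beyond a log2 fold change of 0.4, with Benjamini-Hochberg adjustment over all genes tested and a threshold of 0.05. SEs were derived from the test against 0. Differences between organs were tested with quasi-likelihood F tests. TS and NTS counts were compared per GG within libraries, for genes with at least 10 GG on each strand. RPKM used exon lengths of GENCODE M21 and TMM-scaled library sizes, and CPM and RPM the reads on genes per library. Shares carry 95% Wilson intervals, which cover counting error only. The scripts were tested on simulated data.

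All members were named, with accessory clock genes past the test in any organ and the 3 genes most like Per1, Arntl and Dbp. Of each other list at most 2 genes were named by size of change among those past the test. Lcn2 was added as the largest change of its list. Alternatives were other scalings, no filter, DESeq2 1.42.0, single-organ fits, 16 libraries, a replicate block, gene length in place of GG, and each library left out.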

Additional observations from a re-analysis of the deposited data

Results flagged for a closer look

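The ratio of TS to NTS reads differed between organs by the test of the difference itself (edgeR's quasi-likelihood F test, adjusted over all genes) in 4 members in each DNA assay. In XR-seq these were Per2 (adjusted p = 0.00215), Cry2 (0.00337), Arntl (0.00361) and Per1 (0.0122), each lower in kidney and liver than in lung and spleen. In Damage-seq they were Clock (adjusted p = 0.000521), Per1 (0.00115), Cry2 (0.00189) and Arntl (0.0335). Per1, Cry2 and Arntl were thus named in both assays, which used the same treatment and organs. By the paper's methods, chromatin left from the XR-seq preparation was kept for Damage-seq. These genes did not share a relation between the assays. For Per1, spleen had the highest fitted ratio in XR-seq (30.1) and in Damage-seq (0.868). For Cry2, liver had the lowest in both (8.45 and 0.247). For Arntl, kidney had the lowest in XR-seq (3.88) and the highest in Damage-seq (0.718).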

How the results depend on the processing

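Counts of members past the threshold, other than those by pair of organs, which were not recomputed, stayed within 1.5 times the reported count under the alternatives, with these exceptions, although members could change within a count. In kidney RNA-seq 2 members passed with no filter and 2 with each organ fitted on its own, Dbp beside Per1. Of all genes, these settings called 850 and 781 in kidney, against 595 in the main fit. With each organ alone, 0 passed in liver and 1 in lung. With 16 libraries as replicates, 9 members differed in control level, as did 15793 of all genes, against 13205 in the main fit. The Damage-seq count of members with less TS than NTS damage went from 5 to 3 in kidney with gene length in place of GG. In spleen it went from 2 to 3 with gene length and to 1 over genes under 100 kb, which leaves out Arntl. With each library left out in turn, that count ran from 1 to 6 in kidney and 0 to 3 in spleen. The count ran from 0 to 1 in kidney RNA-seq, 0 to 2 in liver RNA-seq, 4 to 7 for the XR-seq TS level, 1 to 5 for the Damage-seq ratio, 5 to 8 for the Damage-seq TS level and 2 to 5 for the Damage-seq NTS level. The cause was not tested. Depth limits the Damage-seq values of Dbp and Nr1d1 most.

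With the replicate block on 16 libraries, 2 members passed in kidney, and the block called 2007 genes (kidney), 1500 (liver), 1011 (lung) and 118 (spleen). The same 16 libraries without the block gave 1261, 1006, 537 and 85, and the 14 samples 595, 517, 70 and 26. In XR-seq the block lost the TS level call of Nr1d2 (adjusted p = 0.0584). The correlation of replicate differences between control and cisplatin, a check of the pairing, was 0.608 (kidney), 0.517 (liver), 0.259 (spleen) and 0.089 (lung), with only 2 numbers per comparison, and the labels do not say what a number marks. The paper adjusted for a known batch with ComBat, while the labels used here name no batch. The main RNA fit held no batch or replicate term. Under the block Nr1d2 in spleen was 0.04.

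Values that changed sign had not passed the test. Nr1d2 in spleen RNA-seq (-0.05) was 0.03 with RLE scaling, 0.03 in DESeq2, 0.01 with the organ alone and 0.05 with 16 libraries. Per2 in lung was -0.01 with no filter and 0 with the organ alone, and Cry1 in lung was 0 with no filter. With gene length in place of GG, the log2 Damage-seq ratio was -0.04 for Cry1 in kidney and 0.29 for Nr1d1 in spleen. With libraries left out in turn, the log2 fold change in kidney ran from -0.11 to 0.44 for Per2, -0.19 to 1.09 for Nr1d1 and -0.24 to 0.69 for Nr1d2. In liver it ran from -0.77 to 0.29 for Cry1, -0.64 to 0.18 for Nr1d1 and -0.29 to 0.44 for Nr1d2. In lung it ran from -0.01 to 0.06 for Per2, -0.16 to 0.16 for Cry1, -0.88 to 0.15 for Nr1d1 and -1.27 to 0.11 for Dbp. In spleen it ran from -0.20 to 0.01 for Cry1, -0.04 to 0.46 for Nr1d1, -0.25 to 0.16 for Nr1d2 and -0.38 to 0.07 for Dbp. The log2 Damage-seq ratio ran from -0.11 to 0.57 for Dbp and -0.18 to 0.17 for Cry1 in kidney, -0.28 to 0.27 for Cry1 in lung, and -0.62 to 0.01 for Cry2, -0.49 to 0.23 for Per1 and -0.22 to 0.22 for Nr1d1 in spleen.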
